A study of Mus musculus with 72 samples.

Results

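The genes described here encode the subunits of oxidative phosphorylation, the protein complexes in the inner mitochondrial membrane that turn the electrons of NADH and succinate into ATP, together with the complex I assembly factors that carry the same gene prefix. They were chosen by symbol: those beginning with Nduf, Uqcr, Atp5, Cox4, Cox5, Cox6, Cox7 or Cox8, and Sdha, Sdhb, Sdhc, Sdhd, Cyc1 and Cycs. The rule took 93 of the 21400 symbols in the table, including the pseudogene Cox5b-ps. It uses symbols and no response to treatment, but the set was chosen with earlier results of these data known. Of these genes, 25 had several probes among their 129, and each gene is given by its probe of highest mean count. Expression was measured in liver of female B6C3F1 mice, a hybrid strain used in toxicity testing, 9 to 11 weeks of age and housed singly. The mice drank water that held tertiary butyl alcohol (TBA), an alcohol used as a solvent and fuel additive, at 10, 20 or 40 mg/mL, or water with 0 mg/mL, for 14 or 28 d. The 8 groups of dose and duration had 9 mice each, with 1 library per mouse, and the series title asks whether thyroid tumours in such mice arise through an action against the thyroid. RNA was read from scraped sections of fixed, paraffin-embedded liver by TempO-Seq, in which pairs of detector oligos bound side by side on a chosen transcript are ligated, amplified and counted.

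Complex I takes electrons from NADH and complex II takes them from succinate, and both pass them through ubiquinone to complex III. Cytochrome c carries them on to complex IV, which reduces oxygen, and the proton gradient built on the way drives the ATP synthase. Most subunits are nuclear genes, while a small set is encoded in mitochondrial DNA. Hepatocytes are rich in mitochondria and use this system to pay for gluconeogenesis, urea synthesis and the handling of fatty acids.

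Promoters are shown for Ndufa1, Ndufa4, Ndufb7 and Cox7a2l, the 4 genes whose dose slope at 14 d was called in the main fit described below. Other settings given below ended all 4 calls. Sdha is shown as well, because its level was tied most closely to a property of the libraries described below. Each runs 5′ to 3′ on the gene's strand from 250 bases before to 50 bases after the annotated start, from RefSeq (GRCm38.p6). Capitals mark the letters of motifs searched on both strands. The Ndufa1 window lies at chrX:37191189-37191488 on the minus strand, the Ndufa4 window at chr6:11907401-11907700 on the minus strand and the Ndufb7 window at chr8:83566508-83566807 on the plus strand. The Cox7a2l window lies at chr17:83514284-83514583 and the Sdha window at chr13:74350191-74350490, both on the minus strand.
Ndufa1: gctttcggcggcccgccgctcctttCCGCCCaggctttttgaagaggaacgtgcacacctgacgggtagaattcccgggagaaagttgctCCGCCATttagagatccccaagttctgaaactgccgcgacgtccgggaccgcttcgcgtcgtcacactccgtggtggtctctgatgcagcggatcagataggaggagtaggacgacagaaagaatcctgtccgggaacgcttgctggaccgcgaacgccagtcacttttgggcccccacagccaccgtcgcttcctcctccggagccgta
Ndufa4: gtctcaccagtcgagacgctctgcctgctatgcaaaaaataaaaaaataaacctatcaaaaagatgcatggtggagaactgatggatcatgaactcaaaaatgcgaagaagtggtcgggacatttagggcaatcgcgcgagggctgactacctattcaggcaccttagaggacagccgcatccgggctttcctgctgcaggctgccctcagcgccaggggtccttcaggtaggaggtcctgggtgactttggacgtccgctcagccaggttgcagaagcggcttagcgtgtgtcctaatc
Ndufb7: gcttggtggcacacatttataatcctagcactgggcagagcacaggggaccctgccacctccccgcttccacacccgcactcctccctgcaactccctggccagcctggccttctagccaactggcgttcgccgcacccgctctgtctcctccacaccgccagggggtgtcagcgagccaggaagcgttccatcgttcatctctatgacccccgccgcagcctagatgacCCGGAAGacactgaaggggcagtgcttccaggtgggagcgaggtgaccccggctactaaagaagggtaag
Cox7a2l: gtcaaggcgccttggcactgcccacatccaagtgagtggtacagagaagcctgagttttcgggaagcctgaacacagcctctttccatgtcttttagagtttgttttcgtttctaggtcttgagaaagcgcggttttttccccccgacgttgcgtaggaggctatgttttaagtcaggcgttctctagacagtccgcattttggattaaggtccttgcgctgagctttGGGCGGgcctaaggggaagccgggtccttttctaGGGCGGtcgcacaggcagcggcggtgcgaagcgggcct
Sdha: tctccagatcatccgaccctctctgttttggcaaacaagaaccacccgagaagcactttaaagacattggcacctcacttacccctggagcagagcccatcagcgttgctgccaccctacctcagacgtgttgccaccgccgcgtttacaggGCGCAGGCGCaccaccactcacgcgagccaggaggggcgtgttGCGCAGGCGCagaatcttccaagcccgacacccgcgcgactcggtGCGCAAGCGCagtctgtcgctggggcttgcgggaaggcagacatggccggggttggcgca

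The motifs were those of factors known for housekeeping or mitochondrial promoters. A gene was counted when any of its windows held the letters. The motif of the nuclear respiratory factor NRF1, in capitals in the Sdha window, was present in 19 of the 75 members with a promoter (25.3%). It was in 5.19% of all 27025 genes with a promoter, which were not matched to the members for type or base content. CCGGAAG (the ETS family, which includes GABP) was also in 19 members (25.3%), against 9.93% of all these genes. ATGGCGG (YY1) was in 12 members (16%) against 4.69%, TGACCTT (the estrogen-related receptors) in 8 members (10.7%) against 5.38%, and GGGCGG (SP1) in 36 members (48%) against 38.2%. The letters of different motifs did not overlap in the 5 windows shown. The Sdha window held the NRF1 letters 3 times on the opposite strand, at positions -98, -55 and -10 from the start. Ndufb7 held the ETS letters at -20, Ndufa1 the SP1 letters at -225 and the YY1 letters at -160, both on the opposite strand, and Cox7a2l the SP1 letters at -22 and 13. Ndufa4 held none of the 5 motifs. These are matches of letters and no binding was measured.

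One library, replicate 5 at 40 mg/mL for 14 d, held 10796 counts and was left out, which leaves 8 mice there. Totals of the remaining 71 libraries ran from 7.77 to 12.7 M counts. All 7 hepatocyte markers passed the count filter, with a summed level of 32637 to 49197 CPM (counts scaled to a common library total) in the 14 d controls, while no adipocyte marker did. Libraries differed in composition: the 20 most abundant probes took 22.1% ± 0.987 of counts (SD, n = 9) in mice without TBA for 14 d, and this share was 13.2% ± 3.64 (SD, n = 8) after 14 d of 40 mg/mL. The trimmed-mean (TMM) factor, which rescales library totals so that most probes keep their level, was 0.897 ± 0.0336 (SD, n = 9) and 1.24 ± 0.247 (SD, n = 8) in the same groups. Replicate 3 of the 28 d controls stood apart from the other 8 with a factor of 1.37. Levels below are TMM-scaled CPM, and fold changes are on the log2 scale with p-values of edgeR's quasi-likelihood test, Benjamini-Hochberg adjusted over all 17050 tested probes and called below 0.05. Probes differ in efficiency, so levels are compared between mice and not between genes. In bulk liver, fewer cells of a type and less RNA per cell cannot be told apart.

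Of the 93 genes, 84 passed the filter on low counts: 35 complex I subunits, 7 complex I assembly factors, 3 of complex II, 9 of complex III, cytochrome c, 13 of complex IV (with the pseudogene Cox5b-ps) and 16 of the ATP synthase. Complexes are counted by gene symbol here and below, so Ndufa4, known as a subunit of complex IV, is among the 35. The 9 genes below the filter were Cox4i2, Cox6a2, Cox7a1, Cox7b2, Cox8c, Ndufa3, Ndufa4l2, Ndufaf2 and Sdhb. Among these, Cox6a2 and Cox7a1 are the heart and muscle forms of their subunits, and Cox7b2 and Cox8c are known from testis. Sdhb, the iron-sulfur subunit of complex II, is not a tissue-restricted gene, yet its only probe was at 0 in 70 of 71 libraries with at most 4 counts, while Sdha, Sdhc and Sdhd had counts in every group. No statement on Sdhb can be made from that probe.

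At 40 mg/mL for 14 d, 1 of the 84 genes fell, 0 rose and 83 did not pass. The gene was Ndufa1, an X-linked accessory subunit of the membrane arm of complex I. Over all tested probes 6.52% were called in this comparison (2.84% higher and 3.68% lower), and among probes with a mean of at least 20 CPM 14.2% were, against 1 of 69 genes of the set at that level. The 84 log2 fold changes had a median of -0.052, against 0.062 for all tested probes, and lay between -0.41 and 1.76. Before adjustment, 5 genes were higher and 9 lower at p under 0.05, beside 1741 and 1495 of the 17050 probes. For 60 of the 84 genes (71.4%, against 29.4% of all tested probes) the 95% interval of the change lay within 1.5-fold either way, and for 78 within 2-fold. Interval width depends on counts, and the median level was 82.9 CPM for the 84 genes against 7.70 CPM for all tested probes. The shares within 1.5-fold, here and at 28 d, were not matched for level. At 28 d none of the 84 passed, and over all tested probes 0.00587% did. The median was then -0.079 against 0.033 for all probes, with 0 genes higher and 10 lower before adjustment (583 and 495 of all probes), and 69 intervals (82.1%, against 38.1%) lay within 1.5-fold.

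Scaling shifted all of these values together. With library totals and no TMM factor, the median at 40 mg/mL for 14 d was 0.43 for the 84 genes and 0.54 for all probes, and 83 of the 84 genes had a positive change, against 35 with TMM. The median of the set relative to that of all probes was -0.11 at 14 d under TMM. It was also -0.11 under the size factors of DESeq2, without the 20 most abundant probes and with no factor. At 28 d it was -0.11 under the first 3 of these scalings and -0.12 with no factor. A change of scaling moves all probes of a comparison by nearly the same amount, so these values had to be close. Their closeness is therefore no check on the difference. The set and all probes were not matched for level (median 82.9 against 7.70 CPM). By complex at 14 d, the TMM-scaled medians were -0.091 for complex I, 0.11 for its assembly factors, -0.041 for complex II, -0.037 for complex III, -0.048 for complex IV and -0.052 for the ATP synthase. The corresponding medians at 28 d were -0.081, -0.056, -0.054, -0.027, 0.093 and -0.10.

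**Figure D1:**
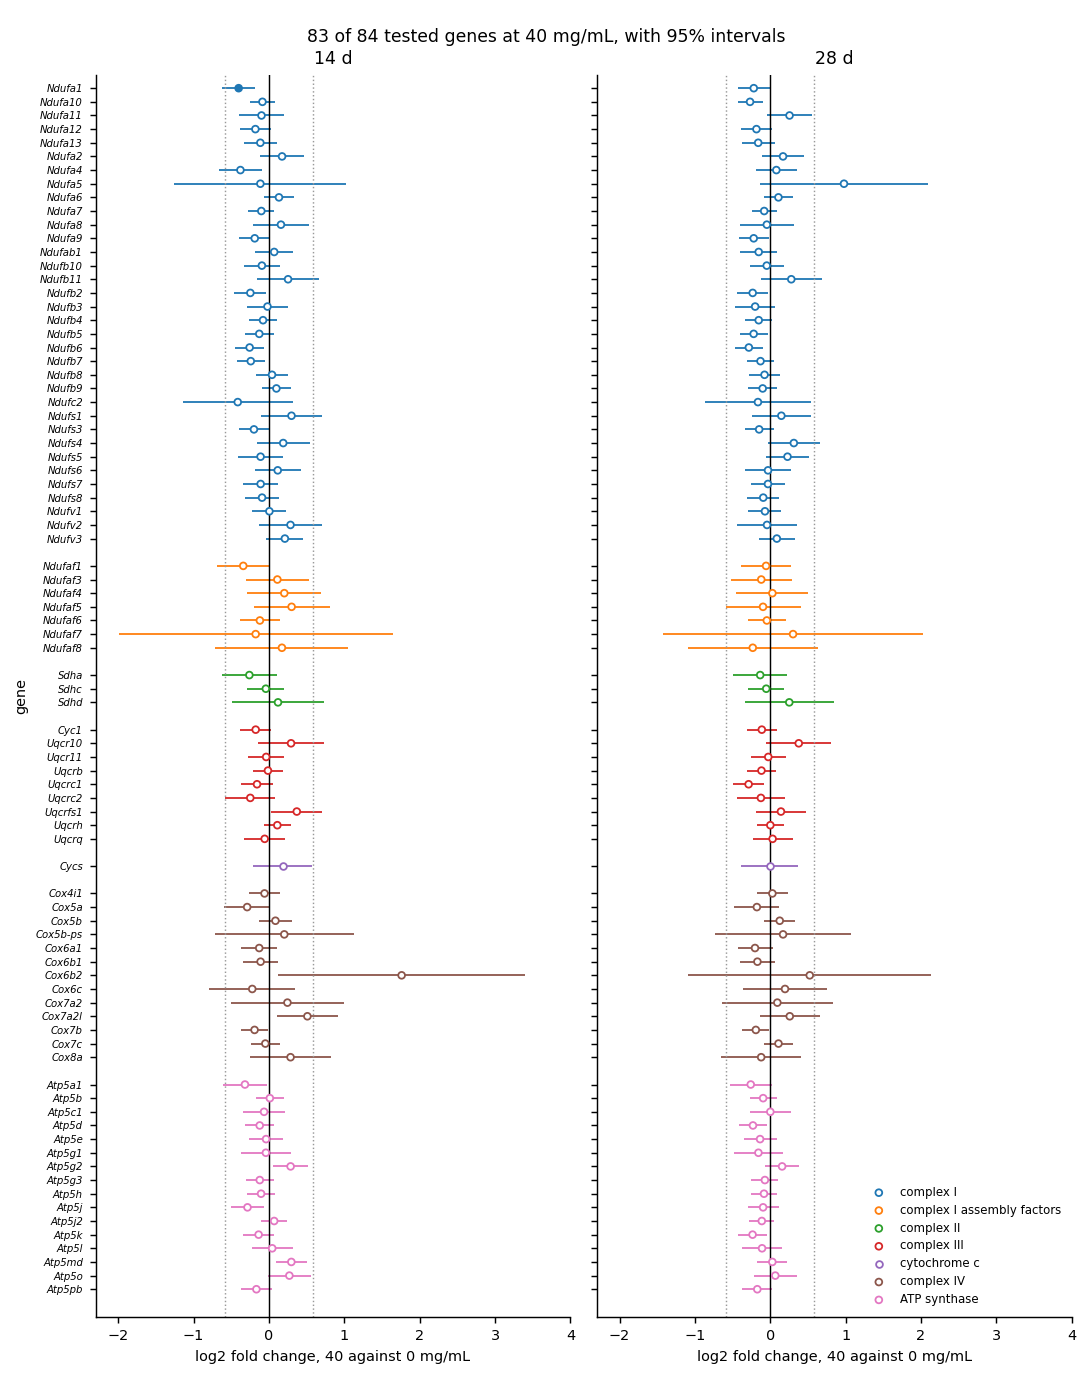
Log2 fold change of 83 of the 84 tested genes at 40 against 0 mg/mL after 14 d (left) and 28 d (right), with its 95% interval, by complex. The y axis lists the genes, the dotted lines mark a 1.5-fold change, and filled points passed an adjusted p of 0.05: Ndufa1 at 14 d passed (log2 change -0.40 with TMM scaling, 0.026 with no TMM factor), no other did, and the widest intervals belong to genes of few counts such as Cox6b2 and Ndufaf7.

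The dose slope at 14 d was called for 4 of the 84 genes and for 7.99% of all tested probes. Of these 4 genes 3 carry the Nduf prefix, as do the 35 genes counted under complex I and the 7 assembly factors among the 84. Ndufa1 at 0 mg/mL for 14 d had a lowest, median and highest level of 722, 786 and 920 CPM. At 10 mg/mL these were 603, 745 and 848 CPM, at 20 mg/mL 505, 692 and 878 CPM, and at 40 mg/mL 504, 558 and 791 CPM. At the top dose 6 of 8 mice were below every control and the other 2 lay within the control range. The change at 40 mg/mL was log2 -0.40 (SE 0.11, 95% interval -0.62 to -0.18, 1.32-fold lower, edgeR adjusted p = 0.0143), but it was 0.026 when library totals were used with no TMM factor. After 28 d its levels were 711, 761 and 851 CPM in controls and 540, 631 and 833 CPM at 40 mg/mL, where 6 of 9 mice were below every control. That change did not pass (log2 -0.22, SE 0.11, edgeR adjusted p = 0.776). Without replicate 1 of the dosed group the change was -0.37 (edgeR adjusted p = 0.0529), and without replicate 7 it was also -0.37 (adjusted p = 0.0509), so the estimate stayed close and the call was lost. Without the 11 libraries of highest TMM factor, which include those replicates, the change was -0.17 (adjusted p = 0.620).

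A linear trend over the 4 doses at 14 d called 7.99% of all tested probes (3.65% higher and 4.34% lower), and 16.5% of those with at least 20 CPM. Of the 84 genes, 3 fell with dose, 1 rose and 80 did not pass. The slope of Ndufa1 was -0.099 log2 units per 10 mg/mL (SE 0.026, edgeR adjusted p = 0.0101), although with no TMM factor the slope was 0.011. The Ndufa1 call held without any single library of the 35 in turn. It was lost without the 11 libraries of highest factor (-0.042, adjusted p = 0.655), with the log2 TMM factor as a covariate (-0.031, adjusted p = 0.494) and with the shallow library kept (-0.15, adjusted p = 0.288). Those 3 settings ended the other 3 slope calls as well. Ndufa4, named for complex I and known as a subunit of complex IV, had a slope of -0.11 (SE 0.034, edgeR adjusted p = 0.0288). Its lowest, median and highest levels were 36.2, 50.7 and 64.1 CPM at 0 mg/mL, 38.8, 56.2 and 60.7 CPM at 10, 31.7, 45.8 and 61.1 CPM at 20, and 23.7, 38.1 and 57.3 CPM at 40 mg/mL for 14 d. The groups overlapped, with 3 of 8 top-dose mice below every control. The call was lost without replicate 1 at 0 mg/mL or replicate 1, 2 or 7 at 40 mg/mL. Its slope was -0.0063 with no TMM factor. The Ndufa4 medians at 28 d were 51.8, 44.7, 39.9 and 48.3 CPM in order of dose, and the slope was 0.025 (SE 0.033).

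Ndufb7, an accessory subunit on the intermembrane side of complex I, had 144, 154 and 192 CPM (lowest, median, highest) in 14 d controls, 144, 159 and 181 CPM at 10 mg/mL, 119, 137 and 179 CPM at 20 mg/mL and 101, 137 and 157 CPM at 40 mg/mL. The top-dose group had 4 of 8 mice below every control. The slope was -0.066 (SE 0.022, edgeR adjusted p = 0.0499), close to the threshold, and it was 0.047 with no TMM factor. The call was lost in 21 of the 35 fits that each left out 1 library. At 28 d the medians were 156, 143, 139 and 137 CPM in order of dose and the slope did not pass (-0.029, SE 0.021).

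**Figure D2:**
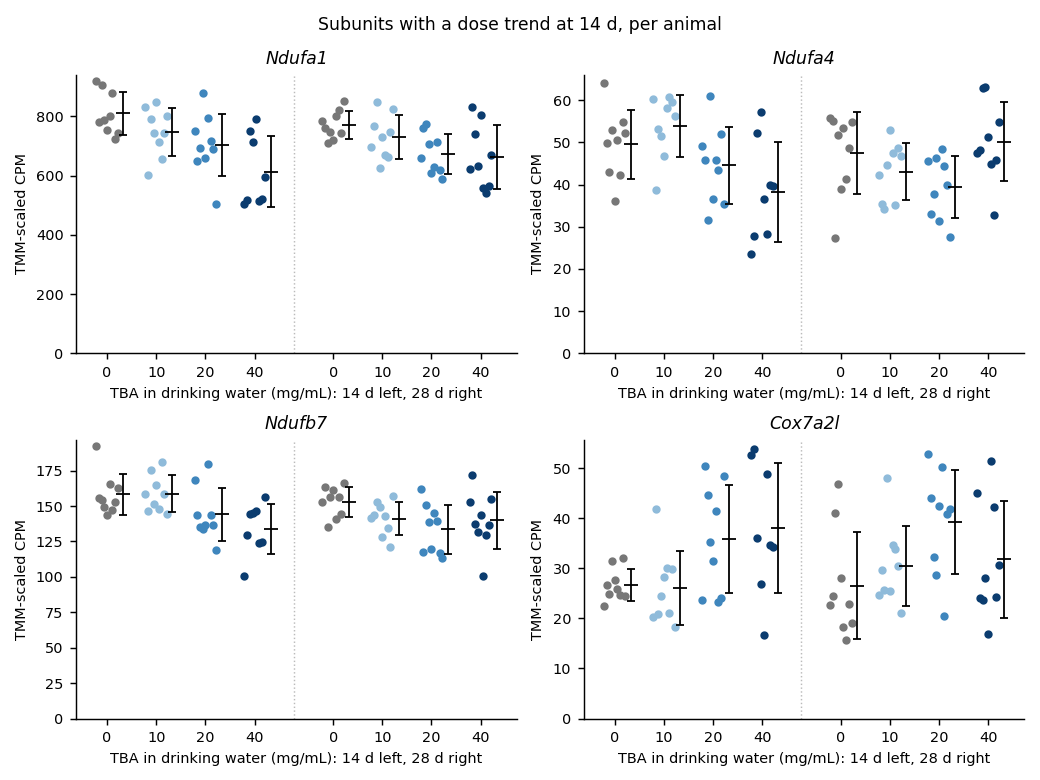
TMM-scaled CPM of Ndufa1, Ndufa4, Ndufb7 and Cox7a2l (y axes, from 0) in each mouse by TBA dose (x axis), 14 d on the left and 28 d on the right of each panel; black marks give the mean ± SD of 8 or 9 mice. At 14 d Ndufa1 medians go from 786 CPM at 0 to 558 CPM at 40 mg/mL and Cox7a2l medians from 26.0 to 35.4 CPM, with overlap between groups; with no TMM factor the slopes of Ndufa1 and Ndufb7 have the opposite sign.

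The other complex I subunits gave smaller or less certain differences. Ndufb6, an accessory subunit of the membrane arm, had a median of 354 CPM in controls and 300 CPM at 40 mg/mL for 14 d (log2 -0.26, SE 0.10, edgeR adjusted p = 0.109). At 28 d its medians were 333 and 261 CPM (log2 -0.28, SE 0.10, adjusted p = 0.465), with 5 of 9 dosed mice below every control. Ndufa10 had the steadiest level of the tested genes, with a within-group SD of 0.13 log2 units. It showed 219 CPM in 28 d controls and 187 CPM at 40 mg/mL (medians; log2 -0.27, SE 0.083, edgeR adjusted p = 0.374), with 7 of 9 mice below every control. That was the smallest adjusted p of the set at 28 d, and DESeq2 called it. Ndufc2, a small membrane subunit, varied most among genes of at least 20 CPM: its control range at 28 d was 12.5 to 100.5 CPM, and its change at 14 d of -0.41 had an SE of 0.36. Ndufs1, the large iron-sulfur subunit of the NADH module, had medians of 8.37 and 10.4 CPM at 0 and 40 mg/mL for 14 d (log2 0.30, SE 0.20). Ndufv1, which binds NADH, had 85.0 and 88.8 CPM (log2 0.0059, SE 0.11). Ndufa5, near 1 CPM, had the highest estimate at 28 d, 0.98, with an SE of 0.56. Thus 34 of the 35 tested genes counted under this complex by symbol did not pass at 40 mg/mL for 14 d and 35 did not at 28 d.

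Of the 7 tested assembly factors, which help build complex I and leave it afterwards, none passed at 40 mg/mL at either duration. Ndufaf1 had the lowest estimate, with medians of 38.6 CPM in controls and 28.6 CPM at 40 mg/mL for 14 d and 5 of 8 mice below every control (log2 -0.34, SE 0.17, edgeR adjusted p = 0.271). Ndufaf5 had the highest (0.30, SE 0.25), and the extremes at 28 d were Ndufaf8 (-0.23, SE 0.43) and Ndufaf7 (0.30, SE 0.87), both with few counts.

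Complex II was measured through 3 genes and none passed. Sdha, the flavoprotein that oxidizes succinate, had a lowest, median and highest level of 277, 353 and 426 CPM in 14 d controls and 215, 268 and 508 CPM at 40 mg/mL (log2 -0.26, SE 0.18, edgeR adjusted p = 0.486). The dosed mice spanned both sides of the control range, with 4 of 8 below and 1 above it. Sdha in controls at 28 d ranged from 203 to 605 CPM and at 40 mg/mL from 217 to 636 CPM (log2 -0.13, SE 0.18). Sdhc and Sdhd, the membrane anchors, had log2 estimates of -0.041 (SE 0.12) and 0.12 (SE 0.30) at 14 d and of -0.054 (SE 0.12) and 0.25 (SE 0.29) at 28 d, none of which passed.

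In complex III, which hands electrons from ubiquinol to cytochrome c, 0 of 9 genes passed at 40 mg/mL at either duration. Uqcrc1, a core protein, was the only gene of the set with a comparison of a dose with its control, out of 6, in which the groups did not overlap. Over all tested probes the groups did not overlap for 0.0352%, 0.0645% and 0.686% in the 14 d comparisons, from the lowest to the highest dose, and for 0.0469%, 0.0235% and 0.0352% at 28 d. After 28 d the controls had 173, 183 and 208 CPM (lowest, median, highest) for Uqcrc1 and mice at 40 mg/mL 132, 150 and 172 CPM. The change was still not called (log2 -0.29, SE 0.10, edgeR adjusted p = 0.514). At 14 d the Uqcrc1 medians were 185 and 166 CPM, with 2 of 8 dosed mice below every control. Uqcrfs1, the Rieske iron-sulfur protein, had the highest estimate at 14 d: medians of 39.6 CPM in controls against 57.7 CPM, with 2 of 8 dosed mice above every control (log2 0.37, SE 0.17, edgeR adjusted p = 0.205). Uqcrc2, the other core protein, had the lowest (-0.25, SE 0.17), with medians of 295 and 237 CPM and 5 of 8 mice below every control. Cyc1, the heme c subunit, had estimates of -0.18 (SE 0.10) at 14 d and -0.11 (SE 0.10) at 28 d. Uqcr10, a small subunit, had estimates of 0.29 (SE 0.22) and 0.38 (SE 0.22). Cycs, cytochrome c itself, had medians of 53.5 and 58.0 CPM at 14 d (log2 0.18, SE 0.19) and 52.5 and 49.9 CPM at 28 d (log2 -0.0093, SE 0.19).

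Of complex IV, 0 of 13 genes passed at 40 mg/mL, and 1 rose with dose at 14 d. That gene, Cox7a2l, is known as a factor that joins complexes III and IV into supercomplexes. Its lowest, median and highest levels at 14 d were 22.6, 26.0 and 32.1 CPM in controls, 18.2, 24.5 and 41.9 CPM at 10 mg/mL, 23.4, 35.3 and 50.4 CPM at 20 mg/mL and 16.7, 35.4 and 53.7 CPM at 40 mg/mL. At the top dose 6 of 8 mice were above every control and 1 was below all of them. The slope was 0.15 per 10 mg/mL (SE 0.048, edgeR adjusted p = 0.0458), and the change at 40 mg/mL did not pass (log2 0.51, SE 0.20, adjusted p = 0.128). The slope call was lost in 17 of the 35 fits without 1 library, and with the log2 TMM factor as a covariate the slope was -0.048. At 28 d the medians were 22.8, 29.7, 41.9 and 28.0 CPM in order of dose, and the slope of 0.066 (SE 0.047) did not pass.

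The other complex IV subunits gave no called change. Cox4i1, the common form of subunit 4, had medians of 116 and 108 CPM at 14 d (log2 -0.058, SE 0.11) and 102 and 107 CPM at 28 d. Cox5a had 168 and 136 CPM at 14 d (log2 -0.29, SE 0.15, edgeR adjusted p = 0.307), whereas Cox5b had 31.0 and 33.8 CPM (0.086, SE 0.11). Cox7b, a small subunit, showed the same estimate at both durations, -0.19 (SE 0.093 and 0.090), with 386 CPM in controls and 330 CPM at 40 mg/mL for 14 d (medians). Cox6c, another small subunit, varied widely, from 37.2 to 91.5 CPM among 14 d controls and from 27.2 to 99.4 CPM at 40 mg/mL. Cox6b2, a form known from testis, had the highest estimate of the whole set, 1.76, at a median under 1 CPM in every group. Its SE was 0.82, and 5 of 8 dosed mice lay within the control range.

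The ATP synthase has a catalytic head, F1, and a proton-conducting ring in the membrane, and 0 of its 16 tested genes passed at 40 mg/mL. Atp5a1, the alpha subunit of the head and the most abundant probe of the set, had 907, 1118 and 1255 CPM in 14 d controls and 578, 858 and 1129 CPM at 40 mg/mL, where 5 of 8 mice were below every control (log2 -0.32, SE 0.14, edgeR adjusted p = 0.200). Atp5b, the catalytic beta subunit of the same head, had 116 and 118 CPM (medians; log2 0.012, SE 0.092), an interval of -0.17 to 0.20. Atp5j, coupling factor 6 of the peripheral stalk, had medians of 609 and 508 CPM, with 6 of 8 mice below every control (log2 -0.28, SE 0.11, adjusted p = 0.0991). Atp5md, a small subunit of the membrane part, had 37.5 and 44.2 CPM, with 5 of 8 above every control (log2 0.30, SE 0.10, adjusted p = 0.0656). DESeq2 called both of these, and also Ndufb6, beside Ndufa1. Of the 3 genes that encode the same ring subunit c, Atp5g2 had the highest estimate at 14 d (0.29, SE 0.12) and Atp5g1 -0.040 (SE 0.17). The lowest estimates at 28 d were those of Atp5a1 (-0.26, SE 0.14), Atp5k (-0.24, SE 0.10) and Atp5d (-0.23, SE 0.093), the delta subunit of the central stalk. A second Atp5d probe, at a mean of 39.8 CPM against 371 CPM, went the other way at 28 d (0.10, SE 0.14). A second Atp5a1 probe had the sign of the chosen one (-0.30, SE 0.14).

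The lower doses gave no called gene of the 84 in any of 4 comparisons. Over all tested probes 0.00% were called at 10 mg/mL for either duration, 0.0352% at 20 mg/mL for 14 d (0.0293% higher) and 0.158% at 20 mg/mL for 28 d (0.0645% higher and 0.0938% lower). Before adjustment, 3 genes were higher and 0 lower at 10 mg/mL at each duration, beside 449 and 287 of all probes at 14 d and 328 and 379 at 28 d. At 20 mg/mL for 14 d, 2 were higher and 1 lower, beside 602 and 430. At 20 mg/mL for 28 d, 9 were higher and 17 lower, beside 1179 and 1404, and all probes too gave fewer at 40 mg/mL for 28 d. Among these, Sdha was at 199, 308 and 434 CPM (lowest, median, highest) against 203, 399 and 605 CPM in controls, and Cox5a at 83.5, 131 and 187 CPM against 89.9, 188 and 232 CPM. The control minima of both came from replicate 3.

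Leaving out that 1 control raised the number of called genes at 20 mg/mL for 28 d from 0 to 5, and the called share of all probes from 0.158% to 4.47%. Uqcrfs1 was then higher by 0.71 (SE 0.16, edgeR adjusted p = 0.0108), Cox7a2l by 0.66 (SE 0.20, adjusted p = 0.0434) and Ndufv3 by 0.41 (SE 0.12, adjusted p = 0.0396). Cox5a (-0.57, SE 0.15, adjusted p = 0.0198) and Sdha (-0.62, SE 0.18, adjusted p = 0.0314) were lower. With that control kept, the same 5 estimates were 0.51, 0.56, 0.40, -0.48 and -0.53, with adjusted p-values from 0.102 to 0.154. No gene of the set passed at 10 or 40 mg/mL for 28 d without it. Ndufv3 has 5 probes, and at 40 mg/mL for 14 d their changes differed in sign. The chosen probe had 0.21 and the others -0.32, 0.022, -0.43 and -0.62, none of them called.

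The effect of 40 mg/mL was compared between durations directly. Of the 84 genes 0 differed, as did 0.00% of all tested probes. Before adjustment 1 gene was higher and 0 lower, beside 581 and 500 of all tested probes. That gene was Ndufa4, with a change that was 0.46 higher at 28 d than at 14 d (SE 0.20, edgeR adjusted p = 0.676). The linear trend at 28 d called 0 of the 84 genes and 0.129% of all probes (0.0762% higher and 0.0528% lower), with 0 genes higher and 11 lower before adjustment (747 and 599 of all probes). The 14 d and 28 d controls did not differ in any of the 84 genes (0.00% of all probes), with 1 higher and 2 lower before adjustment (295 and 221 of all probes).

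The set as a whole was summed in raw and in scaled counts. At 10 mg/mL both means lay on the same side of the controls (1.17% and 12697 CPM at 14 d, 1.16% and 12135 CPM at 28 d), and at 40 mg/mL they lay on opposite sides. As a share of raw counts, the 93 genes took 1.11% ± 0.0232 (SD, n = 9) without TBA for 14 d and 1.40% ± 0.189 (SD, n = 8) with the top dose, and all 8 dosed mice were above the highest control, 1.17% against 1.16%. The rise was not particular to the set: with no TMM factor the median log2 change was 0.54 over all tested probes and 0.43 over the 84 tested genes. After TMM scaling the summed level of the 93 genes was 12434 ± 401 CPM in the controls and 11399 ± 970 CPM at 40 mg/mL, with overlap. At 28 d the share was 1.17% ± 0.128 in controls, 1.31% ± 0.175 at 20 mg/mL and 1.20% ± 0.124 at 40 mg/mL (SD, n = 9), and the scaled sums were 12719 ± 876, 11636 ± 845 and 11645 ± 1401 CPM (SD, n = 9). The share of the 20 most abundant probes moved with these values, and its part in them was not tested.

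**Figure D3:**
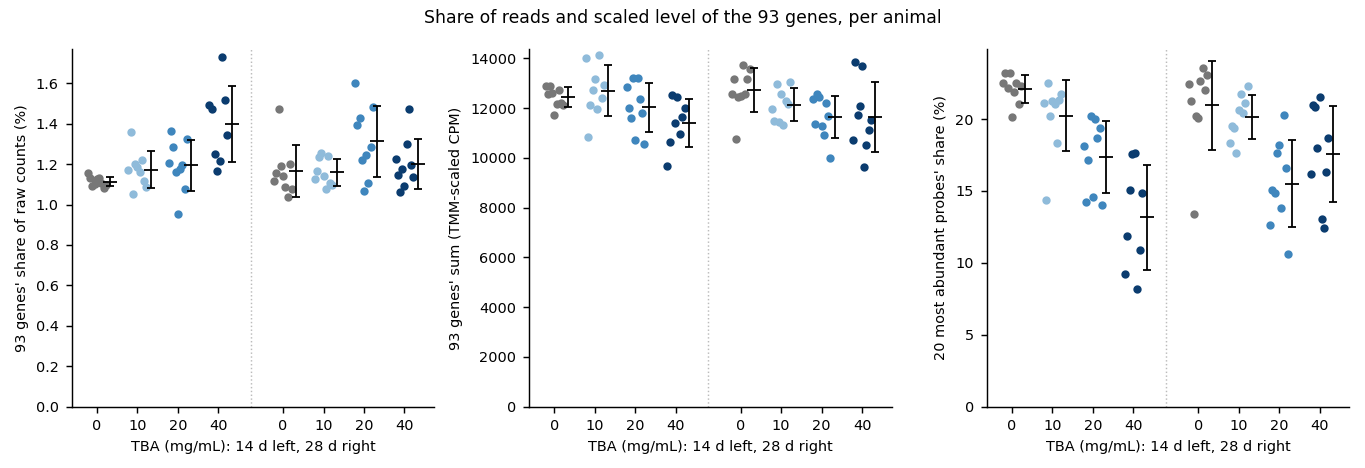
Share of raw counts on the 93 genes (left, %), their summed TMM-scaled CPM (middle) and the share of the 20 most abundant probes (right, %) per mouse by TBA dose, 14 d left and 28 d right in each panel, with the mean ± SD of 8 or 9 mice. At 40 mg/mL for 14 d the raw share is above all controls (mean 1.40% against 1.11%), while the scaled sum is 11399 against 12434 CPM and the top-20 share 13.2% against 22.1%. With no TMM factor the median log2 change over all tested probes was 0.54 in that comparison.

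Within groups, the level of many probes followed the TMM factor of the library, over the whole table as well as in this set. The group mean was taken out of both log2 values, and the 5300 probes with at least 20 CPM, 69 of them genes of the set, were examined over 71 libraries, with 100000 permutations within groups and adjustment over the 5300 probes. The scaled level is divided by the factor, so the 2 measures share it, and the factor comes from the same counts. Permuting the factor breaks this shared part. The p-values therefore cannot tell it from a relation of the gene's own, and the counts below are descriptions. Of the 69 genes 34 were lower in libraries of high factor (49.3%), 17 were higher (24.6%) and 18 did not pass, while 44.6% of all 5300 probes were lower and 19.4% higher. Over the 5300 probes the median r was -0.20 (quartiles -0.55 and 0.17), and over the 69 genes it was -0.29 (-0.64 and 0.23). The 3 measured complex II genes were all lower, as were 16 of 30 complex I subunits (7 higher) and 8 of 15 ATP synthase genes (3 higher). Complexes III and IV were divided, with 2 lower and 3 higher of 8, and 3 lower and 3 higher of 9.

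The relation was closest for Sdha (r = -0.89, rho = -0.84, permutation p = 1e-05, the smallest the permutations can give, adjusted p = 3.27e-05). It was -0.89 without the 2 libraries farthest from the median factor, both from the top dose at 14 d (replicates 7 and 1), and -0.79 over the 60 libraries left without the 11 of highest factor. Atp5a1 (r = -0.87), Uqcrc2 (-0.86), Ndufc2 (-0.84), Cox6c (-0.84) and Cox5a (-0.83) came next. At the other end were Cox7a2l (r = 0.76, rho = 0.74, permutation p = 1e-05, 0.75 without the 2 libraries and 0.68 over the 60) and Uqcrfs1 (0.76), then Ndufs6 (0.67), Atp5o (0.67) and Cycs (0.66). Genes of 1 complex therefore stood at both ends, such as Uqcrc2 and Uqcrfs1 of complex III, and Atp5a1 and Atp5o of the ATP synthase. Uqcrc1 (0.10) and Atp5b (0.059) showed no relation that passed. Of the 4 genes with a called dose slope at 14 d, Ndufa1 had r = -0.72 (-0.53 over the 60 libraries), Ndufa4 -0.65 (-0.27), Ndufb7 -0.48 (-0.097) and Cox7a2l the value above. The sign of r did not change for any of the 69 genes without the 2 libraries. The factor is computed from the composition of the library, so it is tied to raw shares by construction. As a description, it went with a lower raw share of the 20 most abundant probes and a higher raw share of the mitochondrially encoded probes within groups.

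**Figure D4:**
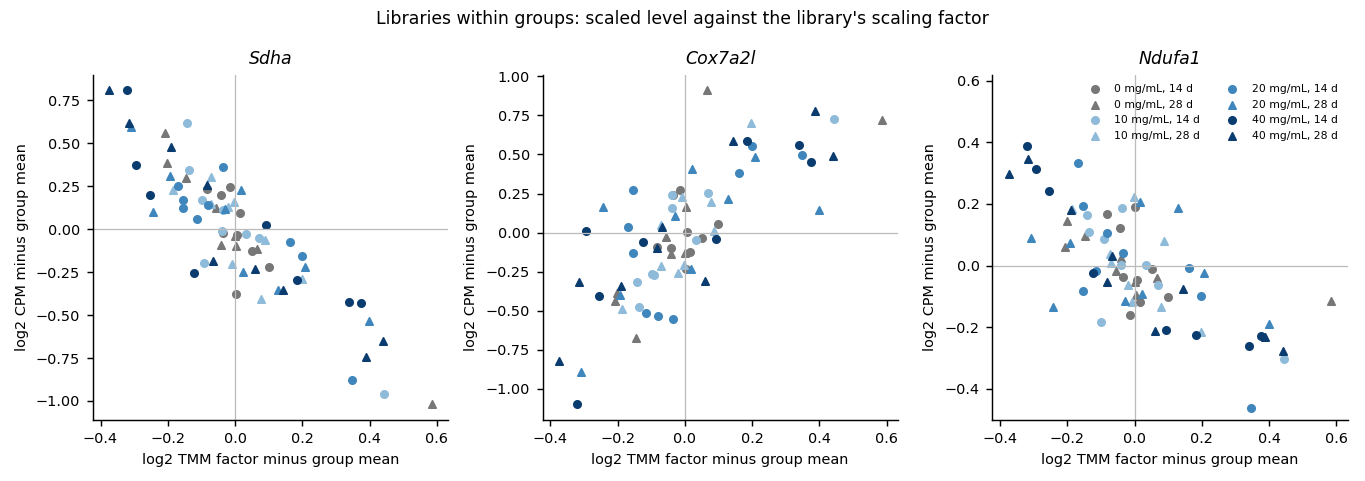
Log2 CPM of Sdha, Cox7a2l and Ndufa1 (y axes) against the log2 TMM factor of the library (x axes), each minus its group mean, for 71 libraries; colours give the dose, circles 14 d and triangles 28 d. Sdha falls along the factor (r = -0.89), Cox7a2l rises (r = 0.76) and Ndufa1 has r = -0.72.

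Other probes of the same genes gave a check of these patterns. Of 31 tested second probes, 19 had the same sign of change as the chosen probe at 40 mg/mL for 14 d and 17 at 28 d. The second Ndufa1 probe, at a mean of 20.6 CPM against 716 CPM, had a change of -0.32 (SE 0.16, edgeR adjusted p = 0.241) at 14 d and 0.20 (SE 0.15) at 28 d, so it did not share the call. For the relation to the TMM factor, 16 of 28 second probes had the sign of the chosen one, and the within-group correlation between both probes of a gene had a median of 0.30 and ran from -0.59 to 0.95. Both Atp5a1 probes were alike (-0.87 and -0.86, r between them 0.95). The chosen Sdha probe at -0.89 was matched by 1 other at -0.73, while the remaining 2 were at 0.19 and 0.12. Sdhc had -0.75 and 0.67, and Ndufv1 0.51 and -0.84, so 2 probes of 1 gene went opposite ways. The correlations describe probes, and probe positions were not used here.

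Mice of one group differed little in most of these genes. The within-group SD of log2 CPM had a median of 0.23 over the 84 genes and 0.51 over all tested probes, and 0.22 against 0.30 among those of at least 20 CPM. Among those of at least 20 CPM the median level was 113 CPM for the genes of the set and 52.7 CPM for all probes, so these spreads were not matched for level. The within-group SD ran from 0.13 for Ndufa10 to 0.81 for Cox6b2. Within groups, 610 pairs of genes from the same complex had a median correlation of 0.18 over 71 libraries and 1736 pairs from different complexes 0.14. These pairs share libraries and scaling, and the values are descriptions.

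The subunits encoded in mitochondrial DNA are not members of the set by its rule and were set beside it. Of 13 such genes 8 were in the table and all 8 were tested. With 40 mg/mL for 14 d, 4 rose, 0 fell and 4 did not pass, while 2.84% of all tested probes were called higher. The median was 0.50, while the nuclear genes had a median of -0.052. The probe for mt-Nd1, a core subunit of complex I, went from 24.6 ± 3.17 (SD, n = 9) to 46.7 ± 22.4 CPM (SD, n = 8; log2 0.93, SE 0.28, edgeR adjusted p = 0.0288). mt-Nd2 went from 7.58 ± 1.94 to 14.2 ± 5.41 CPM (0.90, SE 0.24, adjusted p = 0.0104), mt-Nd4 from 88.7 ± 12.4 to 140.5 ± 55.2 CPM (0.66, SE 0.20, adjusted p = 0.0329) and mt-Atp8, of the ATP synthase, from 49.9 ± 5.19 to 72.6 ± 22.5 CPM (0.54, SE 0.15, adjusted p = 0.0197). The dosed mice spread widely: mt-Nd1 ran from 17.4 to 84.9 CPM, and the lowest was below the control minimum of 17.6 CPM. mt-Nd3 (0.44, adjusted p = 0.0507), mt-Nd4l (0.46), mt-Nd6 (0.33) and mt-Cytb (0.28) did not pass. At 28 d none of the 8 passed and the median was 0.15. Several settings gave fewer calls. Without the 11 libraries of highest factor, 4 of them among the 8 dosed mice, 0 of 8 passed and the median was 0.29. With the factor as a covariate 0 passed, the median was 0.071 and 4 of 8 estimates were above 0. Leaving out single dosed mice, 1 passed without replicate 7 at 40 mg/mL, and 2 passed without replicate 1, 8 or 9, with medians from 0.41 to 0.50. With no TMM factor all 8 passed, in the same direction. Genes such as mt-Nd4l and mt-Nd4 overlap, and the assignment of their reads is unknown here.

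**Figure D5:**
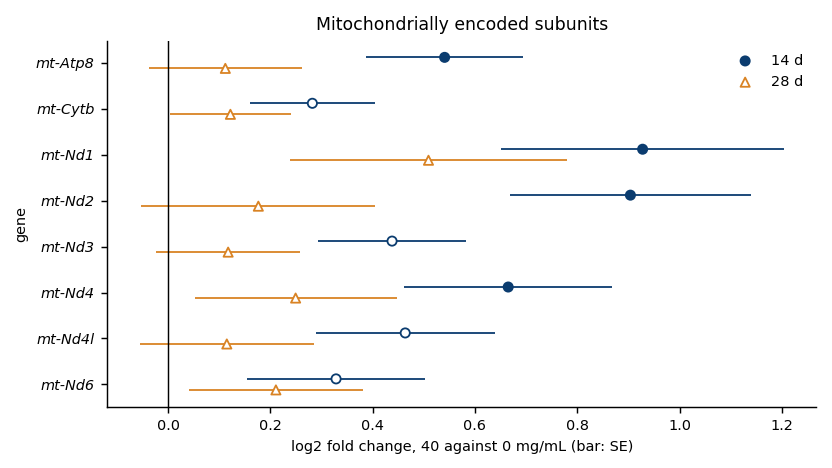
Log2 fold change of the 8 mitochondrially encoded probes (y axis) at 40 against 0 mg/mL after 14 d (circles) and 28 d (triangles), with bars of 1 SE; filled points passed an adjusted p of 0.05. All 16 estimates lie above 0 with TMM scaling (at 14 d 4 of 8 with the factor as covariate), and 4 pass, at 14 d (mt-Nd1, mt-Nd2, mt-Nd4 and mt-Atp8).

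Other genes of mitochondrial energy metabolism were counted from lists written for this set. In mice given 40 mg/mL for 14 d, 0 of 36 assembly factors outside the symbol rule passed, 0 of 22 carriers of electrons, adenine nucleotides and phosphate, 0 of 32 protein import genes and 0 of 26 genes of mitochondrial stress and turnover. Over all tested probes 6.52% were called in that comparison. In the citric acid cycle list 1 of 19 rose and 1 fell. Dlat, the acetyltransferase of pyruvate dehydrogenase, rose by 0.59 (SE 0.16, edgeR adjusted p = 0.0141), and Dld, the dehydrogenase shared by that complex and the 2-oxoglutarate complex, fell by 0.49 (SE 0.14, adjusted p = 0.0171). Of 21 regulators 1 fell, Tfam, which packages and transcribes mitochondrial DNA (log2 -0.49, SE 0.14, edgeR adjusted p = 0.0199). Of 73 mitochondrial ribosomal proteins 3 fell, Mrpl39 (-0.39, adjusted p = 0.00278), Mrpl27 (-0.48, adjusted p = 0.00752) and Mrpl2 (-0.39, adjusted p = 0.0376), and 70 did not pass. The medians of these 7 lists lay between -0.066 and 0.084, and at 28 d none of their genes passed.

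Markers of liver cell types were read in the same libraries. At 40 mg/mL for 14 d, 3.68% of all tested probes were called lower and 2.84% higher. Of 7 hepatocyte markers 4 fell (Alb -0.72, Ttr -0.64, Apoa1 -1.16 and Serpina1a -0.78 in log2 units, the last from a family of near-identical copies). Tat, Hnf4a and Cps1, also on that list, were not called lower. The summed level of all 7 was 8098 to 35192 CPM against 32637 to 49197 CPM in controls. Of the others, 1 of 6 sinusoidal endothelial markers fell (Oit3), 1 of 8 stellate and fibroblast markers fell (Reln) and 1 of 3 erythroid markers rose (Hba-a2, 1.56). None passed among the cholangiocyte (3 tested), Kupffer and macrophage (7), T and NK cell (3), B cell (3), neutrophil (2), muscle (1) and exocrine pancreas (1) markers, and at 28 d none passed in any list. The part of these markers in the results for Ndufa1 and the mitochondrially encoded probes was not tested.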

How the data were processed

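TempO-Seq read counts per probe were deposited by the authors for 72 libraries, 1 per mouse. Base calls used bcl2fastq 2.20 and reads were aligned with Bowtie, per the submitters' processing notes; the Bowtie version, genome build and counting tool are not given in the sources used here. The labels give no batch or plate, and nothing pairs mice across groups. The members and lists were chosen with earlier results of these data known.

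The library under 100000 counts was left out. Among 280 within-group pairs of libraries 0 were identical, and the smallest chi-square per degree of freedom was 6.62. Probes were filtered with edgeR's filterByExpr (17050 of 30146 kept), scaled by TMM and fitted over all 8 groups with edgeR's quasi-likelihood test (edgeR 4.0.16, limma 3.58.1, R 4.3.3), with a contrast for each dose, a linear dose trend per duration, the difference of the 40 mg/mL effect between durations, and the control difference. The script was tested on simulated data. The common biological coefficient of variation was 0.402. Log2 levels used a pseudocount of 0.5 CPM, and intervals are 95%. Alternatives were DESeq2 1.42.0, other scalings and filters, fewer groups, the TMM factor as covariate, summed probes, the shallow library kept and each library left out. Adjusting the relation to the TMM factor over all abundant probes, leaving out the 11 libraries of highest TMM factor and using no TMM factor were chosen after seeing the data. Correlations used Python 3.11.15, numpy 2.4.6, pandas 2.3.3 and scipy 1.17.1.

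Named genes were those past the threshold, the complex II genes, Cyc1, Cycs, the complex IV isoform families, Ndufa4 and Ndufa4l2, the lowest and highest change and the highest level per complex, genes whose probes differ in call or sign, and called genes of the other lists. Atp5b, Atp5g1, Atp5j, Atp5k, Ndufa10 and Ndufs6 fall outside this rule and were chosen after their values were seen, as were the genes below the filter. Promoters are from RefSeq, GRCm38.p6, which held 75 of the 93 genes. One gene of the set is counted in the totals and is not reported here by itself.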

Additional observations from a re-analysis of the deposited data

Results flagged for a closer look

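In each group of 8 or 9 mice, the highest or lowest mouse was set against the others by its gap to the nearest value over the group's range (Dixon's 95% limit), for 45 of the genes, for the set's share of counts and for its mean difference from the controls. For the genes, gap and range were taken on log2 values with the pseudocount of 0.5 CPM, and not on the CPM printed below. Of 376 groups tested, 39 (10.4%) had a mouse beyond the limit, where chance gives about 1 in 20. The genes share libraries, so these are not 39 separate events. All values are TMM-scaled CPM unless a share is named, with the range of the other mice of the group in brackets.

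Replicate 3 of the 28 d controls accounted for 12. It was lowest for Atp5a1 at 673 (993 to 1342), Atp5pb at 198 (261 to 327), Cox5a at 89.9 (153 to 232), Cox6c at 30.2 (66.8 to 136) and Ndufa4 at 27.4 (39.0 to 55.8). It was also lowest for Ndufb5 at 148 (183 to 222), Ndufb6 at 268 (309 to 350.3), Sdha at 203 (379 to 605), Sdhc at 85.4 (128 to 162) and Uqcrc2 at 166 (265 to 411). It was highest for Uqcrfs1 at 81.4 (28.1 to 43.6) and for the share of counts on the set, 1.48% (1.04% to 1.20%). Its TMM factor was 1.37.

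Replicate 2 at 10 mg/mL for 14 d was lowest for Atp5a1 at 691 (1002 to 1389), Atp5e at 190.2 (232 to 283) and Atp5pb at 205 (264 to 318), and highest for Cycs at 114 (37.5 to 62.4) and Uqcrfs1 at 69.6 (33.1 to 46.6). Replicate 9 at 20 mg/mL for 14 d was lowest for Atp5e at 136 (221 to 270.1), Ndufaf5 at 1.496 (4.23 to 9.69) and Sdha at 167 (275 to 395), and highest for Cycs at 138 (43.0 to 70.5) and Ndufv1 at 139.8 (76.2 to 97.5). Both are among the 11 libraries of highest TMM factor.

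Replicate 1 of the 14 d controls was lowest for Atp5pb at 206 (250.8 to 298), Cox7a2 at 0.447 (1.63 to 2.09) and Uqcrc2 at 254 (281 to 308), and highest for Ndufb7 at 192 (144 to 165). Replicate 1 at 20 mg/mL for 28 d was highest for Atp5o at 91.5 (38.5 to 59.2) and Cox7c at 130.4 (68.9 to 93.9) and had 0 for Ndufaf8 (1.53 to 5.25). Replicate 3 of that group was highest for Cox6b2 at 5.14 (0 to 0.994). Replicate 6 at 40 mg/mL for 14 d was highest for Ndufaf7 at 2.31 (0 to 0.448) and Sdhd at 83.4 (20.0 to 33.6).

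Single values remained in the other libraries. At 40 mg/mL for 14 d they were Cox6a1 at 20.6 in replicate 1 (31.7 to 39.6) and Ndufaf8 at 0 in replicate 2 (1.07 to 3.83). In controls they were Ndufaf5 at 1.12 in replicate 6 at 14 d (4.02 to 9.14) and Ndufa5 at 0 in replicate 7 at 28 d (0.488 to 1.44). At 10 mg/mL they were Ndufv2 at 9.34 in replicate 9 at 14 d (14.6 to 19.7), Ndufaf6 at 29.7 in replicate 6 at 28 d (42.0 to 57.9) and Ndufs1 at 5.61 in replicate 8 at 28 d (7.91 to 9.68).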

How the results depend on the processing

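Of 253 values for whole comparisons under the alternatives, 215 kept their direction and side of the threshold or moved by less than the limit, 8 lost calls, 8 gained calls and 22 moved, among them medians that changed sign with no TMM factor. Of 1041 values for named genes, 983 kept theirs, 21 lost a call, 33 gained one and 4 reversed. The cause of these changes was not tested. At 40 mg/mL for 14 d, where 1 gene passed, the count was 4 with DESeq2 (1 higher, 3 lower), 2 with a filter at a mean of 5 CPM, 9 with the TMM factor as covariate (8 higher, 1 lower), 52 with no TMM factor (all higher), and 0 with the shallow library kept, without the 11 libraries of highest factor and with only the compared groups. The median was -0.22 with the shallow library and 0.43 with no factor, the genes within 1.5-fold 22 and 25, and the mitochondrially encoded calls 0 and 8; those calls were 0 with the covariate and without the 11 libraries of highest factor.

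Ndufa1 at 40 mg/mL for 14 d had an adjusted p of 0.427 with the covariate, 0.349 with the shallow library, 0.620 without the 11 libraries of highest factor and 0.0917 with only the compared groups, against 0.00104 with DESeq2. With no TMM factor its change was 0.026, its slope 0.011 and the slope of Ndufb7 0.047, and with the covariate the slope of Cox7a2l was -0.048. The trend at 14 d, where 4 genes passed, called 2 with no filter, 7 at 5 CPM, 7 with the covariate, 55 with no factor, and 0 with the shallow library or without the 11 libraries of highest factor; its median was -0.059 with the shallow library and 0.11 with no factor. At 20 mg/mL for 28 d the count went from 0 to 2 with DESeq2, 1 at 5 CPM, 3 without the 11 libraries of highest factor and 2 with no factor. The 40 mg/mL count at 28 d went to 1 with DESeq2 and 1 with the covariate, and 39 intervals lay within 1.5-fold with the shallow library. The trend at 28 d gave 1 with DESeq2 and 2 with the covariate. With no factor the medians were 0.14 at 20 mg/mL for 14 d, 0.25 at 20 mg/mL for 28 d, 0.092 at 40 mg/mL for 28 d, 0.028 for the trend at 28 d and -0.32 for the difference between durations, which was 0.15 with the shallow library.

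With each library left out, the count at 40 mg/mL for 14 d was 0 to 4 (0 without dosed replicate 1 or 7, 4 without 6), the mitochondrially encoded calls 1 to 5, the count at 20 mg/mL for 28 d 0 to 5 (2 without dosed replicate 7) and the 14 d trend 1 to 10 (10 without replicate 6 at 40 mg/mL). The slope of Ndufa1 was -0.12 to -0.090, of Ndufa4 -0.14 to -0.093, of Ndufb7 -0.076 to -0.054 and of Cox7a2l 0.12 to 0.17. No paired analysis was possible because the labels give no replicate numbers shared between groups. Genes of few counts, such as Cox6b2 and Ndufa5, had intervals too wide to place their change.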
